A study of Homo sapiens with 22 samples.

Results

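The genes of the ATF6 branch and the CREB3 family encode transcription factors that are held in the membrane of the endoplasmic reticulum (ER), together with the proteases that release them. The 8 genes were taken by name from the 58278 Ensembl gene entries of the deposited count tables: ATF6 and ATF6B, the CREB3 family genes CREB3, CREB3L1, CREB3L2 and CREB3L4, and MBTPS1 and MBTPS2, which encode site 1 and site 2 protease. Each symbol matched a single entry, and all 8 passed the filter on low counts in both assays. No measured value was a criterion of the choice, though earlier results of these data were known when it was made. Total RNA was sequenced (RNA-Seq), and so were the mRNA fragments that ribosomes protect (Ribo-Seq), from cells given cycloheximide at 0.1 mg/ml for 5 min to hold ribosomes in place, a step given for Ribo-Seq alone. The cells were LN308, a glial line grown from an astrocytoma. Each assay had 3 libraries of cells treated with tunicamycin at 2.5 µg/ml for 2 h and 3 for 6 h, 1 library each of thapsigargin at 200 nM for 2 h and 6 h, and 3 libraries of untreated cells at 0 h. Tunicamycin blocks N-linked glycosylation and thapsigargin blocks the SERCA calcium pump of the ER, so both disturb protein folding there. The protocol names a DMSO control while the 0 h libraries are labelled untreated, and no vehicle library at 2 h or 6 h was analysed here. Whether the replicates are separate cultures is not labelled, and the p-values may then reflect technical spread alone.

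When unfolded proteins build up in the ER, ATF6 moves to the Golgi apparatus, where site 1 protease and then site 2 protease cut it and free its cytosolic part. That part enters the nucleus and turns on genes of chaperones and of ER-associated degradation, often through the ER stress response element (ERSE), a CCAAT box and a CCACG box set a fixed distance apart. The CREB3 family members are built alike and are cut by the same proteases, and they are better known for expanding the secretory pathway in secreting cells such as chondrocytes and osteoblasts. RNA and footprint counts do not measure this cutting, so they show how much message for each factor was present and under translation and not how much factor was active. Fewer cells of a kind and less RNA per cell cannot be told apart in these bulk samples.

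RNA-Seq libraries held 101 to 167 M counts and Ribo-Seq libraries 4.39 to 29.2 M. RNA-Seq untreated replicate 1 stood apart, where 53489 genes had a count and the remaining RNA-Seq libraries had 38264 to 40331 such genes. Ribo-Seq untreated replicate 1, the deepest of its assay at 29.2 M counts, also lay apart, at 137 on the second principal component. The next highest Ribo-Seq library there was at 42.6. Among untreated Ribo-Seq libraries it was highest for ATF6, ATF6B, MBTPS1, MBTPS2 and CREB3L4. For CREB3, CREB3L1 and CREB3L2 untreated replicate 1 was the lowest of them. In RNA-Seq the tunicamycin replicate 1 libraries and both thapsigargin libraries lay together on the second principal component. Of 11 glial markers, 8 reached 1 CPM (counts scaled to library size) in at least 1 untreated RNA-Seq library, led by VIM, CD44 and NES, while GFAP, which defines astrocytes, lay between 0.678 and 3.38 CPM and AQP4 under 1 CPM throughout. At 6 h of tunicamycin GFAP rose in RNA (log2 fold change 1.15 ± 0.25, edgeR adjusted p = 0.0493), while no other glial marker passed and the list's median was -1.13 in RNA-Seq (all genes -0.27) and -0.86 in Ribo-Seq (all genes -0.07). Summed blood markers came to 1.14 to 1.86 CPM in treated and 1.87 to 3.91 CPM in untreated RNA-Seq libraries. Summed over 10 epithelial markers, RNA came to 92.9 to 150 CPM at 6 h of tunicamycin and 63.6 to 80.2 CPM untreated, mostly KRT18 and KRT8, while CDH1, EPCAM, KRT19 and KRT5 stayed under 1 CPM, and the part of such RNA in the results was not tested. EPCAM nonetheless lay at 0.569 and 0.679 CPM in tunicamycin replicate 1 at 2 h and 6 h, at 0.302 and 0.413 CPM after thapsigargin and at 0.74 CPM in untreated replicate 1, and at 0.0159 CPM or less in the 6 other RNA-Seq libraries.

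The 8 genes lie on 7 chromosomes, and RefSeq places them on GRCh38.p14 as follows. ATF6 spans chr1:161766320-161964070 and CREB3L4 spans chr1:153967487-153974359. ATF6B spans chr6:32115264-32128246, CREB3L2 chr7:137874979-138002086, CREB3 chr9:35732666-35736999 and CREB3L1 chr11:46277662-46321409. MBTPS1 spans chr16:84053763-84116942 and MBTPS2 chrX:21839617-21885423. CREB3L4 overlaps SLC39A1 by 698 bp and JTB by 91 bp, CREB3 overlaps GBA2 by 134 bp, YY2 lies inside MBTPS2, and CREB3L2-AS1 lies inside CREB3L2. The strand setting of the counting is not given in the sources used here, so reads from these shared stretches cannot be told apart.

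RefSeq promoter windows, from 250 bases before to 50 bases after a gene's start, were searched on both strands for letters of 6 stress-related motifs. The windows follow the starts in the RefSeq promoter table, and those of CREB3L1 and CREB3L4 and the second of CREB3L2 lie inside the gene spans given above. The ERSE (CCAAT, any 9 bases, CCACG) stood in 0.08% of 35116 windows, in 0 of the 9 windows of the 8 genes, and in the windows of 6 of 17 reported ATF6 target genes. ERSE-II (ATTGG, any base, CCACG) stood in 0.05% of windows, the UPRE (TGACGTGG) in 0.73%, CARE (TGATGCAA) in 0.87% and SRE-1 (TCACNCCAC) in 1.13%, and none of these 4 had a match in the 9 windows. A cyclic AMP response element (CRE, TGACGTCA), present in 1.85% of windows, stood 179 bases before the start of CREB3L2. The 250 bases before the start of ATF6 (chr1:161766070-161766319, plus strand) and CREB3L2 (chr7:138002087-138002336, minus strand) are shown because these 2 genes were called in RNA-Seq at 6 h of tunicamycin once replicate numbers were a block, with the CRE in capitals.
ATF6: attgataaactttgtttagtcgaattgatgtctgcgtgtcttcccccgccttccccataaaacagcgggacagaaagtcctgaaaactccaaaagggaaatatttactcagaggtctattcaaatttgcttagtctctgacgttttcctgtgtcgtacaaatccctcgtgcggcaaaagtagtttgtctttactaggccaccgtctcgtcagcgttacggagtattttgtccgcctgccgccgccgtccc
CREB3L2: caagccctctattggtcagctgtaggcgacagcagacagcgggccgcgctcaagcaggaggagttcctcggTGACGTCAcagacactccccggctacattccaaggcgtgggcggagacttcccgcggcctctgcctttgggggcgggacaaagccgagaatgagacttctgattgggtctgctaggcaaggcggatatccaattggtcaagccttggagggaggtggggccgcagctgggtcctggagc
For contrast, the ERSE matches on the sense strand of 4 reported target genes are shown with the CCAAT and CCACG boxes in capitals. They lie 66 bases before the start of HSPA5 (chr9:125241391-125241409, minus strand), 52 before XBP1 (chr22:28800603-28800621, minus strand), 86 before PDIA6 (chr2:10812853-10812871, minus strand) and 194 before HSP90B1 (chr12:103930216-103930234, plus strand), which has another match on the antisense strand 89 bases before its start.
HSPA5: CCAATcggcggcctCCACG
XBP1: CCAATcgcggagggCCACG
PDIA6: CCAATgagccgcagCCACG
HSP90B1: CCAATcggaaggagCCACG
A match of letters is a description of the sequence and not evidence of binding, and the lack of a match holds for these windows only.

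The first comparison asked whether the messages of the sensor, its proteases and its relatives differed in cells under ER stress. ATF6, CREB3L2, CREB3 and CREB3L4 RNA lay higher at 6 h of tunicamycin within each replicate number, CREB3 by little in replicates 2 and 3, ATF6B RNA did not, and footprints on both protease genes lay lower. At 6 h of tunicamycin, 0 of the 8 genes passed an adjusted p of 0.05 in RNA-Seq (edgeR's quasi-likelihood test, Benjamini-Hochberg adjustment over 41130 genes, of which 1.5% passed). At an unadjusted p under 0.05 the count was 1 of 8, against 17.4% of all genes, and DESeq2 called 1 of 8, with 6.04% of all genes. In 3 of the 8 genes, ATF6, CREB3 and MBTPS1, the 6 h and untreated libraries did not overlap, which was so for 21.1% of all genes. ATF6 and CREB3L2 passed the test once the replicate numbers were taken as a block, so that 2 of 8 were called, with 3.95% of all genes.

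**Figure D1:**
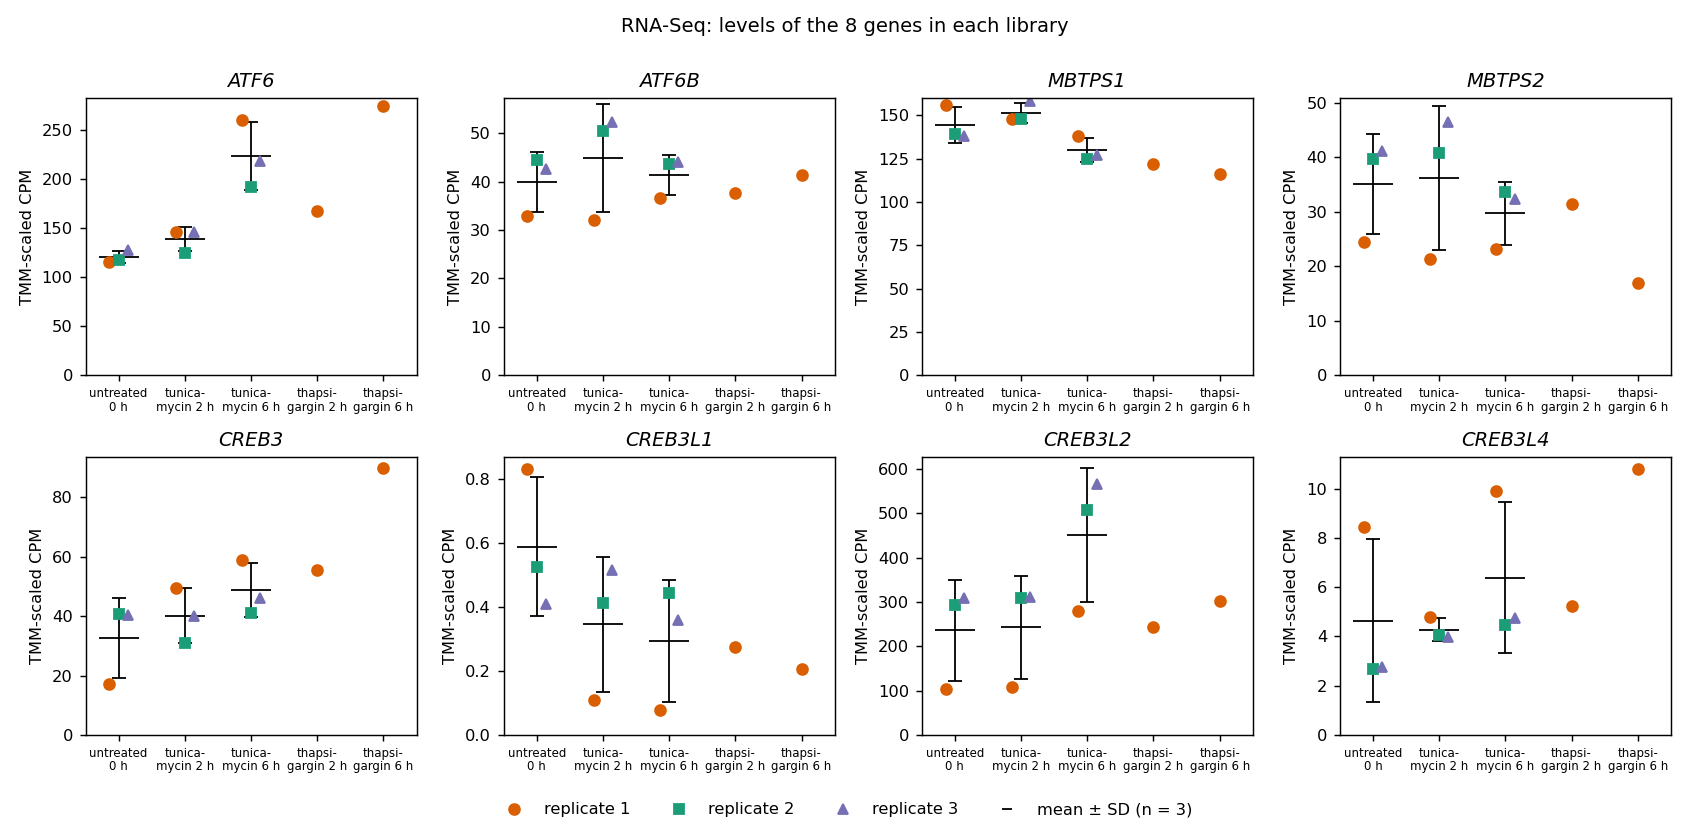
TMM-scaled CPM (y axes, each starting at 0) of the 8 genes in the 11 RNA-Seq libraries, by treatment and time (x axes), with colours and shapes for replicate numbers and bars for mean ± SD of 3 libraries. ATF6 lies between 192 and 260 at 6 h of tunicamycin and at 275 at 6 h of thapsigargin, above all 3 untreated libraries, while replicate 1 of CREB3L2 and MBTPS2 sits below the other numbers in each 3-library group.

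ATF6, the stress sensor itself, had 260, 192 and 219 CPM (scaled by edgeR's trimmed mean of M-values, TMM) in RNA-Seq replicates 1, 2 and 3 at 6 h of tunicamycin, against 116, 118 and 128 CPM in untreated replicates. All 3 treated libraries lay above all 3 untreated libraries. The log2 fold change was 0.89 ± 0.21 (SE) with an edgeR adjusted p of 0.0655, so it missed the threshold in the fit without a block. With the replicate number as a block it was 0.88, with an edgeR adjusted p of 0.0367. DESeq2 gave 0.87 and an adjusted p of 8.0e-05. Without RNA-Seq untreated replicate 1 the edgeR value was 0.87 with an adjusted p of 0.0384, where 3.09% of all genes passed. Scaling by library size alone gave 0.59 (edgeR adjusted p = 0.163), a setting that also moved the median of all genes to -0.58, against -0.27 with TMM. The 2 h libraries had 146, 125 and 146 CPM, which overlapped the untreated libraries (0.21 ± 0.20, edgeR adjusted p = 0.695). From 2 h to 6 h of tunicamycin the log2 fold change of ATF6 RNA was 0.69 ± 0.20 (edgeR adjusted p = 0.207), again with no overlap.

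Footprints on ATF6 showed a smaller difference. At 6 h of tunicamycin they stood at 164, 158 and 168 CPM, against 155, 89.9 and 111 CPM in untreated cells. The groups did not overlap, but untreated replicate 1 came close to the treated libraries, and the log2 fold change was 0.46 ± 0.26 (edgeR adjusted p = 0.515). Within replicate numbers 1, 2 and 3 the log2 ratios of 6 h over untreated were 0.0884, 0.811 and 0.59 for footprints and 1.17, 0.709 and 0.773 for RNA. Replicate 1 thus had the largest RNA ratio and the smallest footprint ratio. At 2 h of tunicamycin the ATF6 footprints were at 116, 88.0 and 84.5 CPM, and all 3 numbers lay below their untreated counterparts (log2 ratios of -0.414, -0.0315 and -0.399), while the edgeR log2 fold change was -0.30 ± 0.26 and did not pass. All 3 libraries of 6 h lay above those of 2 h, at a log2 fold change of 0.76 ± 0.26 with an edgeR adjusted p of 0.299.

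ATF6B, the close relative of ATF6 that is a weaker activator, did not show the difference seen in ATF6. Its RNA was at 36.7, 43.6 and 44.0 CPM at 6 h of tunicamycin, against 32.8, 44.5 and 42.5 CPM in untreated cells (log2 fold change 0.05 ± 0.24, edgeR adjusted p = 0.915). The groups covered the same range, and the sign turned with a few of the alternatives. ATF6B footprints were at 42.9, 75.3 and 74.1 CPM at 6 h of tunicamycin, against 89.3, 76.3 and 72.2 CPM in untreated cells, with treated replicate 1 lowest and the other 2 treated libraries inside the untreated range (-0.31 ± 0.27, edgeR adjusted p = 0.72).

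Because both genes are measured in the same library, the ratio of ATF6 to ATF6B counts does not depend on scaling. It is not per unit of length, so only its difference between groups is read. In RNA-Seq the ratio was 7.07, 4.41 and 4.98 at 6 h of tunicamycin, against 3.53, 2.64 and 3.01 in untreated cells. All treated ratios exceeded all untreated ones, by 0.82 on the log2 scale on average, and the exact two-sided permutation test gave p = 0.1, the smallest that 3 against 3 libraries allow. Taken as pairs by replicate number, the log2 differences were 1.0, 0.736 and 0.725, and the exact sign-flip test gave p = 0.25, the smallest that 3 pairs allow. Ribo-Seq gave 3.83, 2.1 and 2.26 at 6 h, against 1.73, 1.18 and 1.54 untreated, a log2 difference of 0.84 (exact permutation p = 0.1, exact sign-flip p = 0.25). Replicate 1 had the highest ratio in each 3-library group of both assays. At 2 h the log2 differences were 0.06 in RNA-Seq (exact permutation p = 0.9) and -0.40 in Ribo-Seq (exact permutation p = 0.3).

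**Figure D2:**
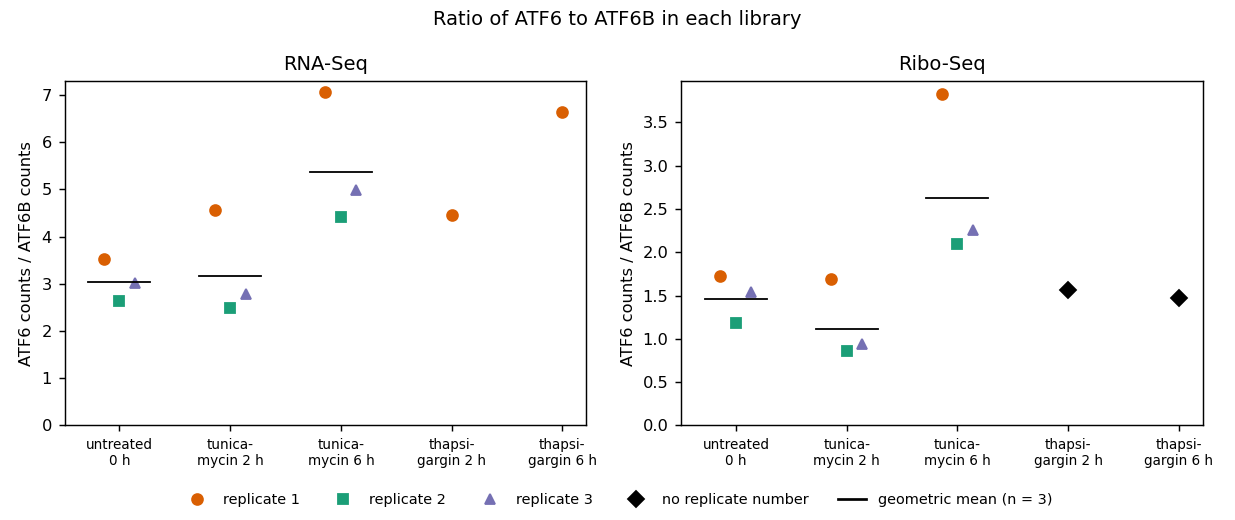
Ratio of ATF6 to ATF6B counts (y axes, from 0) in each library of RNA-Seq and Ribo-Seq by treatment and time (x axes), with black lines for the geometric mean of 3 libraries. In RNA-Seq the 6 h tunicamycin ratios of 4.41 to 7.07 and the 6 h thapsigargin ratio of 6.65 lie above the untreated ratios of 2.64 to 3.53, and in Ribo-Seq the thapsigargin ratios of 1.56 and 1.47 lie among the untreated ones.

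Neither protease gene passed the test at 6 h of tunicamycin against untreated cells. MBTPS1, encoding the site 1 protease that makes the first cut, had RNA at 138, 125 and 127 CPM at 6 h of tunicamycin, against 156, 139 and 138 CPM in untreated cells. The highest treated library all but touched the lowest untreated library, and the log2 fold change was -0.15 ± 0.19 (edgeR adjusted p = 0.654). Footprints on MBTPS1 were at 111, 169 and 141 CPM at 6 h, against 296, 205 and 188 CPM untreated. These groups did not overlap, yet the log2 fold change of -0.71 ± 0.27 had an edgeR adjusted p of 0.318. Its log2 ratios within replicate numbers 1, 2 and 3 were -1.42, -0.279 and -0.415, so replicate 1 held the largest difference.

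MBTPS2, encoding the site 2 protease that cuts within the membrane, had RNA at 23.1, 33.6 and 32.4 CPM at 6 h of tunicamycin, against 24.5, 39.6 and 41.2 CPM untreated, and replicate 1 was the lowest in both groups (-0.24 ± 0.32, edgeR adjusted p = 0.684). Its footprints were at 25.6, 23.0 and 19.5 CPM at 6 h, all below the untreated libraries at 48.1, 27.8 and 36.5 CPM (-0.72 ± 0.35, edgeR adjusted p = 0.439). Both protease genes thus had lower mean footprints at 6 h, without passing the test.

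CREB3L2 (BBF2H7), known in mouse chondrocytes for driving Sec23a and with it the secretion of cartilage matrix, differed from ATF6 in how its libraries were spread. Its RNA was at 279, 507 and 565 CPM at 6 h of tunicamycin, against 104, 293 and 310 CPM in untreated cells. The groups overlapped because replicate 1 lay lower in both, and within numbers 1, 2 and 3 the log2 ratios were 1.42, 0.791 and 0.865. Without the block the log2 fold change was 0.93 ± 0.49 (edgeR adjusted p = 0.333). With the block it was 1.03 ± 0.21 and passed (edgeR adjusted p = 0.0355). In replicates 2 and 3 alone it was 0.85 with an edgeR adjusted p of 0.000398, where 19.4% of all genes passed. At 2 h the RNA was at 109, 308 and 311 CPM, within 0.0741 log2 units of the untreated library of the same number. Replicate 1 stood at 0.52 and 0.345 times the mean of replicates 2 and 3, in the 6 h and the untreated group, and at 0.353 times at 2 h. The part that this offset of replicate 1 has in the result was not tested beyond these fits.

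CREB3L2 footprints followed the same order. They were at 356, 567 and 589 CPM at 6 h of tunicamycin, against 229, 304 and 380 CPM untreated, with log2 ratios of 0.638, 0.9 and 0.634 within numbers. Only treated replicate 1 lay within the untreated range, and the log2 fold change was 0.73 ± 0.31 (edgeR adjusted p = 0.373). It passed in the fit that had the block and left out untreated replicate 1 (0.79, edgeR adjusted p = 0.0256), where 4.08% of genes passed. At 2 h the footprints were at 226, 308 and 353 CPM, so all 3 libraries of 6 h lay above all 3 of 2 h (0.77 ± 0.31, edgeR adjusted p = 0.413).

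CREB3 (Luman), the founding member of the family, had RNA at 58.8, 41.1 and 46.3 CPM at 6 h of tunicamycin, against 17.1, 40.7 and 40.4 CPM untreated. The groups did not overlap, but in replicates 2 and 3 the log2 ratios were only 0.0166 and 0.197, against 1.78 in replicate 1. Untreated replicate 1, the RNA-Seq library that stood apart, was the lowest CREB3 value in that assay. The log2 fold change was 0.58 ± 0.33 (edgeR adjusted p = 0.357), and 0.27 without that library. CREB3 footprints were at 58.3, 66.2 and 58.0 CPM at 6 h, against 36.6, 60.8 and 71.1 CPM untreated, and overlapped (0.12, edgeR adjusted p = 0.915).

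CREB3L4 (AIbZIP), first described in prostate cells, was lowly counted, at 9.92, 4.48 and 4.76 CPM at 6 h of tunicamycin, against 8.45, 2.66 and 2.78 CPM untreated. Here replicate 1 lay highest in both groups, and within numbers the log2 ratios were 0.231, 0.749 and 0.778. The log2 fold change was 0.46 ± 0.47 (edgeR adjusted p = 0.583). It passed in replicates 2 and 3 alone (0.79, edgeR adjusted p = 0.00689), where 19.4% of all genes passed. Leaving out untreated replicate 1 gave 1.23, untreated replicate 2 gave 0.18, untreated replicate 3 gave 0.20 and tunicamycin 6 h replicate 1 gave -0.01, and none of these passed. Its footprints averaged 6.73 ± 1.54 CPM at 6 h and 6.77 ± 5.43 CPM untreated (SD, n = 3 each), and untreated replicate 1 was the highest of these libraries.

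CREB3L1 (OASIS), known in mouse for driving the collagen gene Col1a1 in osteoblasts, was near the limit of detection. Its RNA was at 0.0791, 0.442 and 0.360 CPM at 6 h of tunicamycin, against 0.829, 0.524 and 0.410 CPM untreated, and the log2 fold change of -1.02 ± 0.65 did not pass (edgeR adjusted p = 0.385). Its Ribo-Seq counts were 1 to 17 per library, at which no difference between groups was detectable. CREB3L3, the liver and gut member of the family, had 0 footprint counts in all 11 Ribo-Seq libraries and at most 0.209 CPM in RNA-Seq.

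**Figure D3:**
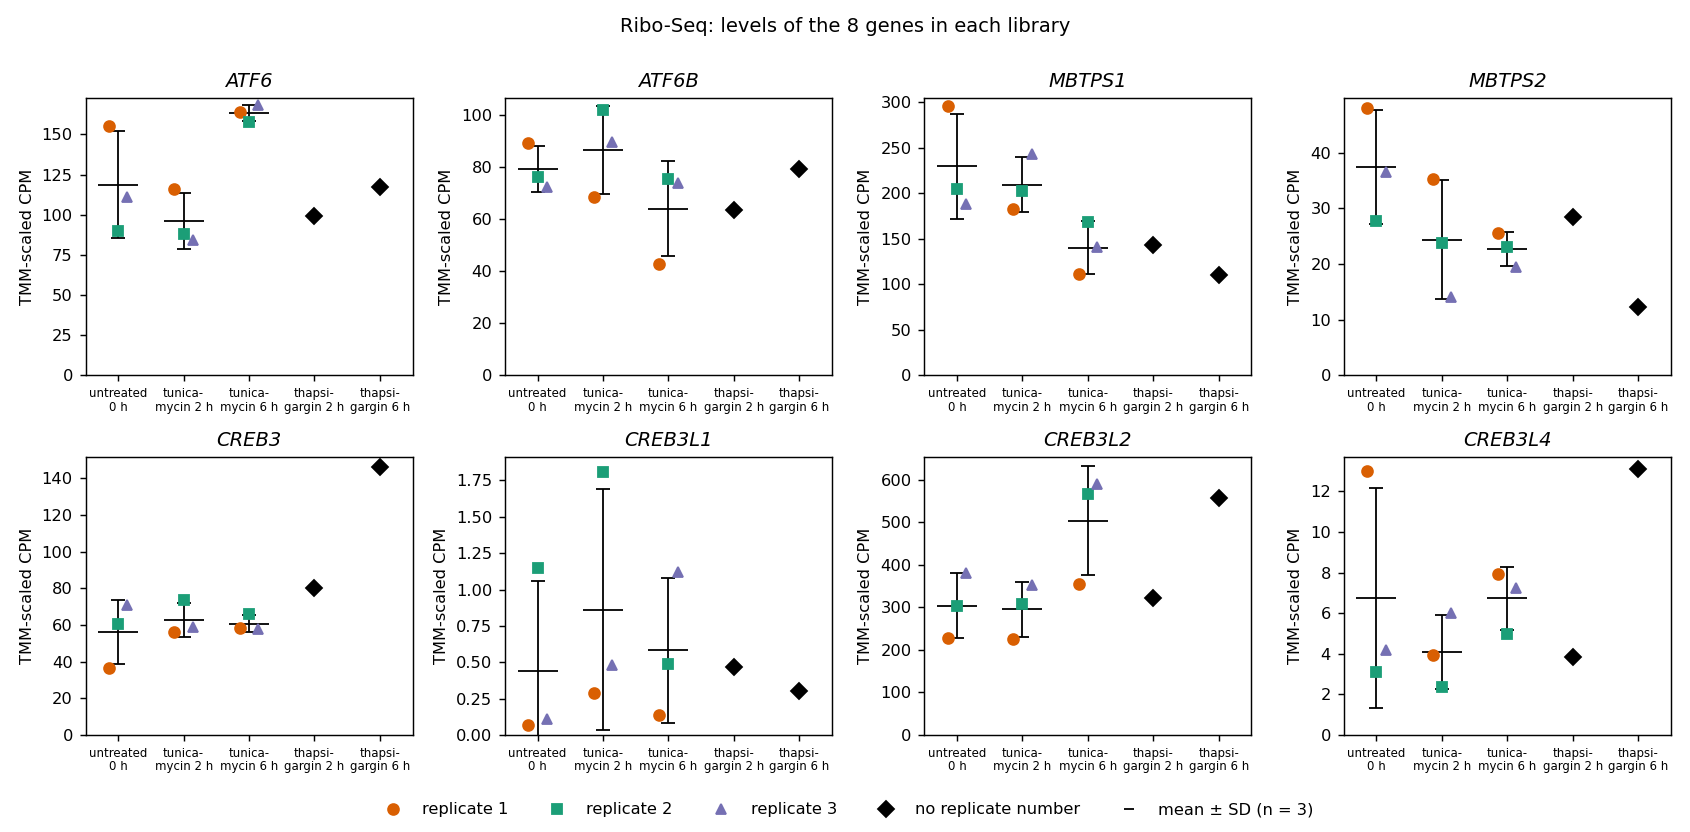
TMM-scaled footprint CPM (y axes, each starting at 0) of the 8 genes in the 11 Ribo-Seq libraries, by treatment and time (x axes), with bars for mean ± SD of 3 libraries and diamonds for the thapsigargin libraries, which carry no replicate number. MBTPS1 and MBTPS2 lie lower at 6 h of tunicamycin (111 to 169 and 19.5 to 25.6) than untreated (188 to 296 and 27.8 to 48.1), and CREB3 is highest at 6 h of thapsigargin, at 146.

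Counts of calls over the other tunicamycin comparisons were as low. At 2 h, 0 of the 8 genes passed in RNA-Seq by edgeR, where 0.00973% of genes passed. The count was also 0 at an unadjusted p under 0.05 (8.06% of genes) and 0 by DESeq2 (0.165%), and 0 were without overlap (9.32%). In Ribo-Seq at 2 h the counts were again 0 by edgeR (0.0% of genes), 0 at an unadjusted p under 0.05 (3.19%) and 0 by DESeq2 (0.0155%). There too 0 were without overlap, against 6.33% of genes. At 6 h, Ribo-Seq had 0 of 8 called by edgeR (0.84% of genes), 0 by DESeq2 (3.53%) and 2 of 8 at an unadjusted p under 0.05 (12.1%). Between 6 h and 2 h of tunicamycin, 0 of 8 passed by edgeR in either assay, with 0.742% of genes called in RNA-Seq and 0.752% in Ribo-Seq. DESeq2 called ATF6 RNA there (0.68, DESeq2 adjusted p = 0.00523), with 3.85% of all genes. The 6 h and 2 h groups did not overlap for ATF6 and MBTPS1 in RNA-Seq (19.5% of genes) and for ATF6, CREB3L2 and MBTPS1 in Ribo-Seq (17.6%), and for ATF6, MBTPS1 and MBTPS2 between 6 h and untreated Ribo-Seq libraries (20.6%). The median log2 fold change of the 8 genes at 6 h against untreated was 0.26 in RNA-Seq, where that of all tested genes was -0.27, and 0.05 in Ribo-Seq, where that of all genes was -0.07. The RNA-Seq median of all genes depended on the libraries used, and was -0.02 in replicates 2 and 3 alone.

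The replicate block changed the calls of these 8 genes in the comparison of 6 h with untreated RNA-Seq libraries and in that of thapsigargin at 6 h. It called 0 of 8 for RNA-Seq at 2 h of tunicamycin (0.0195% of genes), for 6 h against 2 h in RNA-Seq (2.73%) and in Ribo-Seq (2.39%), for Ribo-Seq at 6 h (2.53%), for thapsigargin at 2 h against untreated RNA-Seq libraries (0.601%), and for thapsigargin against tunicamycin at 2 h (0.0316%) and 6 h (0.0705%). Once untreated replicate 1 of the assay was left out as well, 5 of 8 were called between 6 h and 2 h of tunicamycin in RNA-Seq, ATF6 (0.67), CREB3 (0.28), CREB3L2 (0.97) and CREB3L4 (0.49) higher and MBTPS1 (-0.23) lower, but 33.1% of all genes were too. The same setting in Ribo-Seq called 3 of 8, ATF6 (0.80) and CREB3L2 (0.79) higher and MBTPS1 (-0.56) lower, with 10.1% of genes, and in RNA-Seq 4 of 8 for thapsigargin at 6 h, with 26.8% of genes. Replicates 2 and 3 alone gave 3 of 8 for RNA-Seq 6 h against 2 h (25.1% of genes) and 0 of 8 for 2 h against untreated (4.4%).

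**Figure D4:**
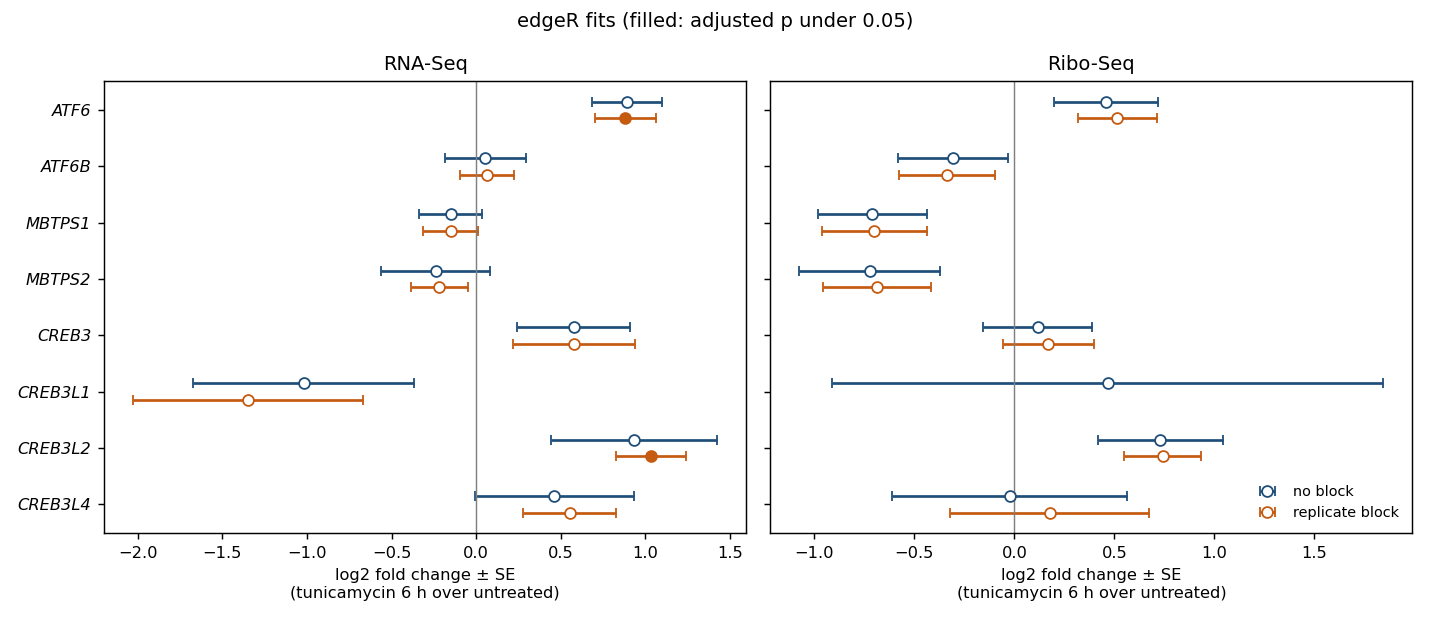
Log2 fold change ± SE (x axes) of each of the 8 genes (y axis) at 6 h of tunicamycin over untreated cells, in edgeR fits without and with the replicate number as a block, with filled points for an adjusted p under 0.05. The block leaves the estimates near their place and narrows the errors of CREB3L2 and MBTPS2 in RNA-Seq, and ATF6 (0.88) and CREB3L2 (1.03) are filled. CREB3L1 was too low for the blocked Ribo-Seq fit.

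Translational efficiency compares footprints with the RNA they come from, and a joint edgeR model over both assays tested how it differed between groups. At 6 h of tunicamycin 0 of the 8 genes passed, as did 0.0% of 18500 genes. There 0 had an unadjusted p under 0.05, against 3.71% of genes, and DESeq2 called 0, with 0.108% of genes. At an adjusted p of 0.05, edgeR and DESeq2 also called 0 of 8 at 2 h of tunicamycin and at both times of thapsigargin, where by edgeR 0.00541% of genes passed at 2 h against untreated cells and 0.00541% against 2 h of tunicamycin. DESeq2 called 0.0757% of genes at 2 h of tunicamycin. For thapsigargin at 2 h and 6 h it called 0.314% and 0.643% against untreated cells, and 0.168% and 0.227% against tunicamycin. At 6 h of thapsigargin against untreated cells, 1 of the 8 had an unadjusted p under 0.05, against 10.4% of genes. At 6 h of tunicamycin the estimates were -0.28 ± 0.29 for ATF6, -0.39 ± 0.30 for MBTPS1 and -0.37 ± 0.49 for MBTPS2. There 7 of the 8 lay below 0, with a median of -0.26, against -0.03 over all genes. At 6 h of thapsigargin 4 of the 8 lay below 0, with a median of -0.003, against -0.23 over all genes. As a description, mean footprint CPM over mean RNA CPM of ATF6 was 0.692 at 2 h and 0.73 at 6 h of tunicamycin, 0.59 at 2 h and 0.425 at 6 h of thapsigargin, and 0.984 untreated. By replicate number, ATF6 log2 ratios of 6 h of tunicamycin over untreated were 0.0884, 0.811 and 0.59 for footprints. For RNA they were 1.17, 0.709 and 0.773. Footprints thus rose less than RNA mainly in replicate 1, and slightly more than RNA in replicate 2. At 2 h footprints lay below and RNA above untreated in each number. The untreated ratio of 0.984 lay at the 49.0th percentile of the 18500 genes. That rank takes no account of transcript or coding length and rests on means over all 3 untreated libraries, so it is no measure of occupancy. For ATF6B the ratio was 1.55 at 6 h of tunicamycin and 1.99 untreated, and for CREB3L2 1.12 and 1.29 in the same groups.

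Thapsigargin, with 1 library per time and assay, gave values without a replicate check, and its tests assume that the lone library varies like the other groups. ATF6 RNA was at 168 CPM at 2 h and 275 CPM at 6 h, the highest of the 11 RNA-Seq libraries, against 116 to 128 CPM untreated. At 6 h the log2 fold change was 1.19 ± 0.27 (edgeR adjusted p = 0.0573). Without RNA-Seq untreated replicate 1 it was 1.16 and passed (edgeR adjusted p = 0.0226), where 7.74% of all genes passed. ATF6 footprints did not share this, at 98.9 CPM at 2 h and 117 CPM at 6 h, inside the untreated range of 89.9 to 155 CPM. The joint model put ATF6 translational efficiency at -1.05 ± 0.41 at 6 h of thapsigargin (edgeR adjusted p = 0.406), and this difference between assays did not pass.

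CREB3 had its own highest values at 6 h of thapsigargin in both assays, as did CREB3L4. CREB3 RNA was at 55.5 CPM at 2 h and 89.9 CPM at 6 h, against at most 40.7 CPM in untreated libraries, and its footprints at 80.4 and 146 CPM, against at most 71.1 CPM untreated. The log2 fold changes at 6 h were 1.46 ± 0.44 for RNA (edgeR adjusted p = 0.127, DESeq2 adjusted p = 0.0304) and 1.38 ± 0.36 for footprints (edgeR adjusted p = 0.0983, DESeq2 adjusted p = 0.0164). In RNA-Seq the estimate was 1.15 without untreated replicate 1, 1.48 with the block, and 0.72 with both changes made together. CREB3L4 at 6 h of thapsigargin had RNA at 10.8 CPM and footprints at 13.1 CPM, both above untreated replicate 1, the highest untreated library, with log2 fold changes of 1.22 ± 0.62 (edgeR adjusted p = 0.35) and 0.93 ± 0.79 (edgeR adjusted p = 0.60). Without RNA-Seq untreated replicate 1 the CREB3L4 RNA value was 1.98 and passed (edgeR adjusted p = 0.0325), where 7.74% of all genes passed. With the block the CREB3L4 RNA value was 0.72. Set against tunicamycin at 6 h, CREB3 was 0.88 ± 0.45 higher in RNA (edgeR adjusted p = 0.908) and 1.26 ± 0.36 higher in footprints (edgeR adjusted p = 0.375), so a difference between the 2 drugs was not called.

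Both protease genes also had low values at 6 h of thapsigargin. MBTPS2 had its lowest levels of all libraries at 6 h, with RNA at 17.1 CPM (-1.04 ± 0.48 against untreated, edgeR adjusted p = 0.308) and footprints at 12.3 CPM (-1.61 ± 0.55, edgeR adjusted p = 0.206). MBTPS1 footprints were at 143 CPM at 2 h and 110 CPM at 6 h, below the untreated range of 188 to 296 CPM (-1.06 ± 0.41 at 6 h, edgeR adjusted p = 0.266). CREB3L2 RNA was at 244 and 303 CPM and its footprints at 322 and 558 CPM at 2 h and 6 h. Against untreated replicate 1, whose number the thapsigargin RNA-Seq libraries share, the CREB3L2 log2 ratios were 1.23 at 2 h and 1.54 at 6 h, while the edgeR log2 fold change at 6 h over all untreated libraries was 0.36 ± 0.67 (adjusted p = 0.76). With the block the 6 h value was 1.39 (edgeR adjusted p = 0.0497), the 1 of 8 called in that fit, where 3.49% of genes passed. Set against tunicamycin replicate 1, the thapsigargin log2 ratio of CREB3L2 was 1.16 at 2 h and 0.119 at 6 h. Over the 8 genes, edgeR called 0 against untreated cells at 2 h and at 6 h in RNA-Seq, where 0.0997% and 1.79% of genes passed, and 0 in Ribo-Seq, where 0.0824% and 0.974% passed. At an unadjusted p under 0.05, 2 of the 8 passed in RNA-Seq at 6 h, against 17.0% of genes, and 3 in Ribo-Seq, against 14.2%. DESeq2 called 2 of 8 in RNA-Seq at 6 h, ATF6 and CREB3, and 1 in Ribo-Seq, CREB3, with 8.58% and 5.39% of genes called. Against tunicamycin, edgeR and DESeq2 called 0 of 8 at either time, with 0.0267% (2 h) and 0.0% (6 h) of genes passing in RNA-Seq by edgeR and 0.0258% and 0.0206% in Ribo-Seq. By DESeq2 these shares were 0.608% and 0.912% in RNA-Seq and 0.598% and 1.03% in Ribo-Seq.

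The reported target genes of ATF6 give the setting in which the 8 genes were measured. Of 18 such genes, 16 rose at 6 h of tunicamycin in RNA-Seq and 0 fell, where 1.5% of all genes were called. The median log2 fold change of the 18 was 2.35. The list was chosen with earlier results of these data known, so its count is a description and no test. HERPUD1, of ER-associated degradation, had 4.68 ± 0.25, SEL1L, a subunit of the same machinery, 2.58 ± 0.24, the co-chaperone gene DNAJC3 2.57 ± 0.24 and the chaperone gene HYOU1 2.54 ± 0.25 (edgeR adjusted p of 7.54e-05 to 0.00141). Footprints rose for 14 of the 18 and fell for 0, where 0.84% of all genes were called. Their median was 1.96, with HSPA5, the gene of the chaperone BiP, at 3.37 ± 0.38 (edgeR adjusted p = 0.00143). At 2 h of tunicamycin 1 of the 18 was called in RNA-Seq (0.00973% of all genes) and 0 in Ribo-Seq (0.0%). At 6 h of thapsigargin 15 were called in RNA-Seq (1.79%) and 11 in Ribo-Seq (0.974%). Without RNA-Seq untreated replicate 1 the RNA-Seq count at 6 h of tunicamycin was 18, where 3.09% of all genes were called. The Ribo-Seq count was 5 without untreated replicate 2, 7 without untreated replicate 3, 9 without tunicamycin 6 h replicate 2 and 8 without its replicate 3. The shares of all genes called in these Ribo-Seq fits are not given here, so the counts cannot be set beside them. Many of these genes are also known targets of XBP1, so the list does not separate the ATF6 branch from the IRE1 branch.

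**Figure D5:**
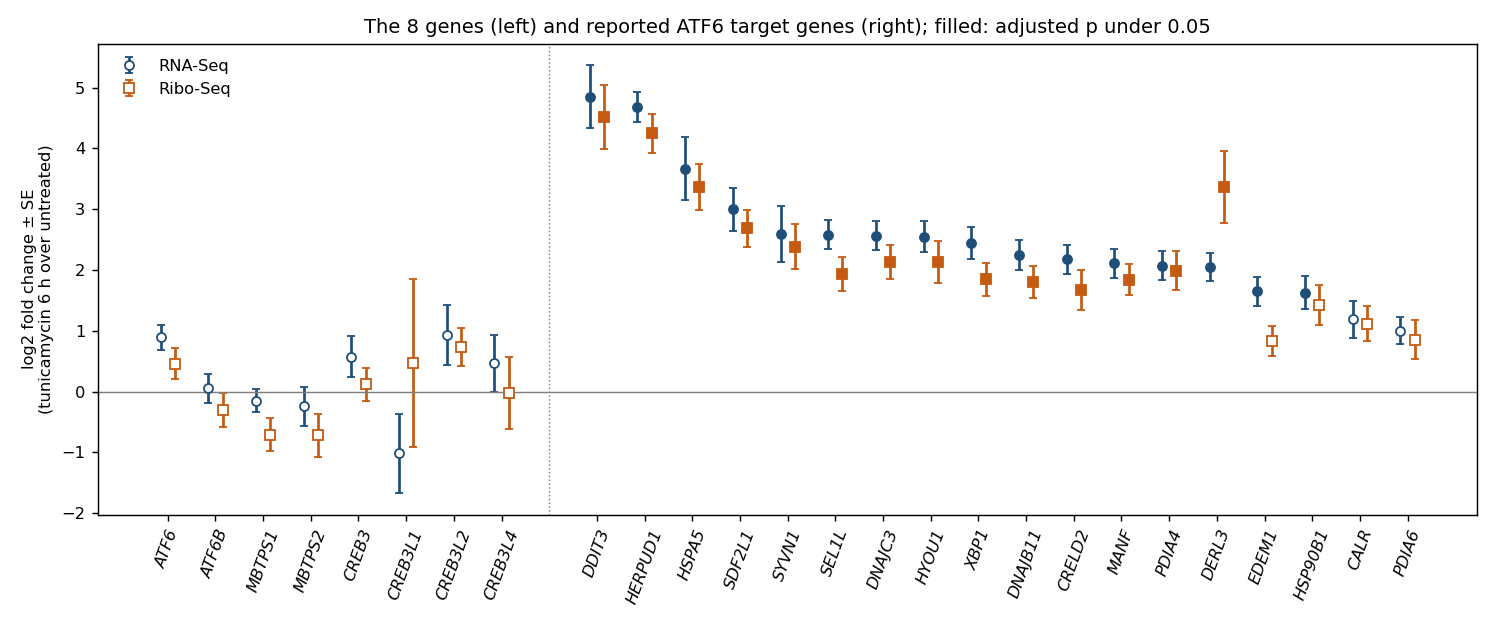
Log2 fold change ± SE at 6 h of tunicamycin over untreated cells (y axis) in RNA-Seq and Ribo-Seq for the 8 genes, left of the dotted line, and 18 reported ATF6 target genes, right of it, with filled symbols for an edgeR adjusted p under 0.05. All 18 targets lie above 0, up to 4.85 for DDIT3, while the 8 genes lie between -1.02 and 0.93 and none is filled.

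Other parts of the route were more mixed. Of 14 partner proteins of the ATF6 and CREB3 factors, 4 rose in RNA-Seq at 6 h of tunicamycin and 0 fell: HSPA5, whose product holds ATF6 in the ER (3.67 ± 0.52), XBP1 (2.45 ± 0.26), WFS1, an ER membrane protein that promotes the breakdown of ATF6 (1.96 ± 0.33), and PDIA5, a disulfide isomerase that acts on ATF6 (1.55 ± 0.26), with edgeR adjusted p of 0.00162 to 0.0189. Of 11 genes of the COPII coat, which carries ATF6 out of the ER, 3 rose and 0 fell, namely SEC24D (2.48 ± 0.42), SEC23B (2.11 ± 0.29) and SEC31A (1.40 ± 0.23). Footprints rose for 3 of the 14 and 2 of the 11. In these fits 1.5% of all genes were called in RNA-Seq and 0.84% in Ribo-Seq. Of 7 other site 1 protease substrates and their regulators 0 passed by edgeR in either assay. INSIG2, an ER anchor of the SREBP pathway, had 0.93 ± 0.23 in RNA (edgeR adjusted p = 0.0876), and GNPTAB, a Golgi enzyme activated by site 1 protease, -0.64 ± 0.20 in RNA and -1.10 ± 0.28 in footprints (edgeR adjusted p = 0.162 and 0.111). Of 14 targets of SREBP, the other well known client of these proteases, 1 rose in RNA, the sterol transfer gene STARD4 (1.64 ± 0.22, edgeR adjusted p = 0.00556), and the list's median was -0.26. The median of all genes was -0.27 in this fit but -0.02 in replicates 2 and 3 alone, so it is no firm baseline for the list. STARD4 was also the 1 of 13 tested that rose in footprints. Of 7 reported CREB3 family targets 3 rose in RNA, HERPUD1, SEC24D and EDEM1, all of which stand in other lists too, and 2 in footprints.

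Likeness was measured as Pearson's r of log2 (CPM + 1) over the 11 RNA-Seq libraries, among 11203 genes with a mean of at least 5 CPM, and is a description of libraries that share treatments, depth and replicate numbers. The genes most like ATF6 were the disulfide isomerase genes PDIA6 (0.993) and PDIA3 (0.992) and MAGT1 (0.99), an oxidoreductase of the N-glycosylation machinery. CREB3 was most like ERO1A, an ER oxidase gene (0.994), and CREB3L2 most like ATP2A2, which encodes the SERCA pump that thapsigargin blocks (0.981), and CCNK (0.981). MBTPS1 was most like the lipase gene LPL (0.967), MBTPS2 most like TRRAP (0.968), ATF6B most like RABL2B and WBP2 (both 0.924), CREB3L4 most like NBR1 (0.973) and CREB3L1 most like BGN (0.956). Of the 24 genes named by this rule, 3 per member, 10 stayed in the list without RNA-Seq untreated replicate 1. PDIA6, PDIA3, RABL2B, WBP2 and BGN were not among those that stayed. CREB3L1 itself had at most 0.829 CPM, in that same library.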

How the data were processed

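RNA-Seq and Ribo-Seq were measured in 11 LN308 libraries each. The authors deposited raw counts per gene, unnormalized, for 58278 Ensembl entries. STAR 2.5.4b, HTSeq, DESeq2 and build GRCh38 are named, per the submitters' processing notes, without their roles. Which annotation and strand setting were used is not given in the sources used here. Ribo-Seq cells received cycloheximide (0.1 mg/ml, 5 min), per the labels' protocols, which can shift ribosomes along mRNAs.

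Sample titles gave the groups and replicate numbers. The thapsigargin Ribo-Seq libraries carry no number. Counts were fitted with edgeR 4.0.16 in R 4.3.3 (filterByExpr with a minimum count of 10, TMM scaling, robust glmQLFit over all groups of an assay, glmQLFTest), with Benjamini-Hochberg adjustment over 41130 RNA-Seq genes and 19411 Ribo-Seq genes. Translational efficiency was an assay-by-group interaction fitted jointly to 18500 genes. The call threshold was an adjusted p of 0.05. The script was tested on simulated data. Alternatives were DESeq2 1.42.0, library size alone, no filter, compared groups only, a replicate block, replicates 2 and 3 only and leaving out each library. Whether numbers pair libraries was checked by correlating deviations from group means, since the labels do not say what a number marks. Same-numbered libraries all correlated above 0.1 for RNA-Seq 6 h with untreated (0.109 to 0.226) and with 2 h (0.414 to 0.676). They also did so for the 3 Ribo-Seq pairs of groups (0.122 to 0.407), and not for RNA-Seq 2 h with untreated (0.0757 to 0.238). Differently numbered RNA-Seq libraries of 6 h and untreated correlated at -0.224 to 0.105, close to the lowest same-numbered value. The check thus does not settle whether numbers pair the untreated RNA-Seq libraries with the treated ones.

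The members and lists were chosen with earlier results of these data known. All 8 members are named, and from each list the 4 called genes with the smallest p at 6 h of tunicamycin, or 2 where none was called. GFAP, VIM and EPCAM were named by rule for the cell type check, and DDIT3 and the other marker genes were named after their values were seen. Levels are TMM-scaled CPM. They depend on gene length, transcript lengths were not used here, and levels are not compared between genes. Promoter sequences are from RefSeq (GRCh38.p14).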

Additional observations from a re-analysis of the deposited data

How the results depend on the processing

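Over the 168 values of the 8 genes in 21 comparisons, 0 were called in the edgeR fits without a block. Of 1804 values under alternatives, 217 changed sign while called in neither fit. At 6 h of tunicamycin against untreated RNA-Seq libraries the number of genes called was 1 with DESeq2, 2 with the replicate block, 3 with the block and without untreated replicate 1, 3 in replicates 2 and 3 only, and 0 to 1 when each library was left out in turn (1 without untreated replicate 1). For RNA-Seq 6 h against 2 h it was 1 with DESeq2, 5 with the block and without untreated replicate 1, and 3 in replicates 2 and 3 only. For thapsigargin RNA-Seq at 6 h against untreated it was 2 with DESeq2, 1 with the block, 4 with the block and without untreated replicate 1, and 0 to 2 when each library was left out (2 without untreated replicate 1). With the block and without untreated replicate 1 it was 1 for thapsigargin at 2 h against untreated, 2 for thapsigargin against tunicamycin at 2 h and 1 at 6 h, and in Ribo-Seq 1 at 6 h of tunicamycin against untreated and 3 against 2 h. These fits also called more of all genes in RNA-Seq: 23.9% at 6 h of tunicamycin, 33.1% for 6 h against 2 h and 26.8% at 6 h of thapsigargin. Ribo-Seq 6 h against 2 h had 1 in replicates 2 and 3 only (4.18% of genes). Ribo-Seq at 6 h of thapsigargin against untreated had 1 with DESeq2 (5.39%) and 1 with no filter on low counts. The causes were not tested. For RNA-Seq at 2 h of tunicamycin against untreated, where same-numbered libraries did not all correlate above 0.1, the block changed no call. The ATF6 to ATF6B ratio in RNA-Seq at 2 h (0.06) reversed to -0.21 without tunicamycin 2 h replicate 1 and to -0.04 without untreated replicate 2, with a range of -0.21 to 0.23 over the left-out libraries, and the other 3 ratios kept their sign in all alternatives. Depth limits what can be seen for CREB3L1, with 1 to 17 counts in the Ribo-Seq libraries.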
